A study of Danio rerio with 12 samples.

Results

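The messenger RNA of unexposed zebrafish larvae was described from the 3 control libraries of a series of 12. Each control library came from 10 pooled whole wild-type larvae at 5 days post fertilization (dpf), a stage that the labels call eleutheroembryo, kept in water with 0.2% DMSO, the solvent, and no perfluorooctanesulfonate (PFOS), a persistent surfactant. The other 9 libraries, 3 pools per dose, carried the same solvent with PFOS at 0.03, 0.3 or 1 ppm, given through the water from 2 to 5 dpf. All 12 pools shared the genotype, the solvent and the age. The control libraries were chosen by their label alone. All 26873 listed genes were ranked by their mean share of the library total, and then by their spread among the 3 pools. Pools are called by their replicate number in the labels. The labels do not say whether the pools came from separate clutches or tanks, so every p measures only the spread between these samples.

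By this stage a zebrafish larva has hatched, swims and begins to feed. Its body is dominated by the fast muscle of the trunk and tail and is covered by a thin epidermis rich in keratins, and its eye, liver and pancreas are already working. A poly-A library of the whole animal mixes the transcripts of all these tissues. In such bulk RNA, fewer cells of a type and less RNA per cell cannot be told apart.

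The deposited values are normalised read counts. They totalled 26951455 in control pool 1, 30824955 in pool 2 and 26550471 in pool 3, and between 24061372 and 31907243 over the series. A value of at least 10 in all 3 control pools was found for 20935 genes, and 638 genes were at 0 in all 3. A gene's share of the library total does not depend on how the library was scaled, but it grows with transcript length. No transcript lengths were used, so shares rank how the counts were spent and do not compare molecule numbers between genes.

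A small number of genes took most of the counts. The 24 most abundant genes held 25% of the counts, 179 held 50%, 1799 held 75% and 6150 held 90%. The 100 most abundant genes held 41.0% of the counts in pool 1, 45.2% in pool 2 and 41.0% in pool 3, a mean of 42.4% ± 2.41 (SD, n = 3). Of these 100 genes, 39 encode cytosolic ribosomal proteins, 15 belong to the skeletal muscle list, 7 to the epidermis list and 6 to the translation factors. Another 16 were in no list and held 7.78% of the counts. Among the first 40 the order was different, with 13 muscle genes, 6 epidermal genes, 3 ribosomal protein genes and 7 genes in no list. Rank 40, rpl3, and rank 41, hsp90ab1, had the same rounded mean share of 0.285%, so the limit of 40 separates genes that do not differ.

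The protein-coding genes of fast muscle led the muscle group. The parvalbumin gene pvalb1 (ENSDARG00000037789), whose calcium-binding product speeds muscle relaxation, took 2.27%, 2.39% and 2.01% of the counts in control pools 1, 2 and 3. Its relative pvalb2 (ENSDARG00000002768) took 2.35%, 2.03% and 1.99%. The fast myosin light chain gene mylpfa took 1.37%, 1.62% and 1.40%. These 3 genes held the ranks 3, 4 and 5, and the pools differed little for each of them. Thin-filament genes had mean shares of 1.24% ± 0.0695 for the actin gene actc1b, 1.2% ± 0.0909 for the tropomyosin gene tpma, 0.370% ± 0.00535 for the troponin I gene tnni2a.4 and 0.358% ± 0.0102 for the troponin C gene tnnc2 (SD, n = 3 each). The creatine kinase genes ckma and ckmb, which buffer the energy supply of the fibre, held 0.585% ± 0.026 and 0.517% ± 0.0217 (SD, n = 3). Calcium is pumped back into the sarcoplasmic reticulum by the product of atp2a1, which held 0.420% ± 0.0317 (SD, n = 3). With 84 matched genes, the muscle list as a whole took 13.8%, 13.9% and 13.2% of the counts, the largest share among the 41 lists. The heart muscle list took 0.0409% ± 0.00388 and the smooth muscle list 0.0212% ± 0.00417 (SD, n = 3). A single gene, actc1a, gave 58.6% of the heart muscle list.

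Keratins made the epidermis the leading tissue after muscle, and their level differed between the pools. The keratin gene krt4 (ENSDARG00000017624) was the second most abundant gene of all, with 1.90% of the counts in pool 1, 3.13% in pool 2 and 2.45% in pool 3. For krt5 the shares were 0.638%, 1.2% and 0.669%, and for the type I keratin gene cyt1 they were 0.627%, 1.1% and 0.737%. Pool 2 was the highest for each of these genes. Another keratin gene, cyt1l, held 0.210% in pool 1, 0.479% in pool 2 and 0.357% in pool 3. The 50 matched epidermis genes together took 5.46%, 9.18% and 6.61% of the counts. Of the 48 with a mean of at least 100 normalised counts, 45 were highest in pool 2 and 40 were lowest in pool 1, and after rescaling to equal library totals these counts were 36 and 40. Over all 15198 genes with such a mean, 5504 were highest in pool 2 as deposited and 2171 after rescaling. Lowest in pool 1 were 6285 of them as deposited and 4722 after rescaling.

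The protein synthesis machinery was spread over many genes. The cytosolic ribosome list, with 82 matched genes, took 11.2%, 12.3% and 11.6% of the counts, and its most abundant member, rplp0, held no more than 5.96% of the list. The elongation factor gene eef1a1l1, which brings aminoacyl-tRNA to the ribosome, held 1.1%, 1.21% and 1.05%. As deposited, 82 of 82 ribosomal protein genes were highest in pool 2. After rescaling to equal totals this was so for 69 of them, and pool 2 had the largest total. Its median gene lay at 0.01 on the log2 scale from the centre of the 3 pools as deposited and at -0.12 after rescaling. The median SD of the ribosomal protein genes on the log2 scale was 0.187, below the 0.213 of all 15198 genes.

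Mitochondrial transcripts moved the other way. The 13 protein-coding genes of the mitochondrial genome took 2.63% of the counts in pool 1, 1.98% in pool 2 and 2.14% in pool 3. All 13 were highest in pool 1, as deposited and after rescaling. Over all 15198 genes with a mean of at least 100, 5858 were highest there as deposited and 6674 after rescaling. The cytochrome oxidase gene mt-co1 held 0.847%, 0.636% and 0.682%. A nuclear respiratory chain list of 89 matched genes did not follow this order, with 2.08%, 2.19% and 2.28%.

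Some of the leading transcripts are not messenger RNA. The most abundant gene of all, zgc:158463 (ENSDARG00000089382), took 2.43%, 2.42% and 2.78% of the counts, and the files label it protein-coding, while RefSeq for the assembly GRCz12tu lists it as rRNA. The 2 genes that the files label as mitochondrial rRNA together held 1.22% of the counts in pool 1, 0.691% in pool 2 and 0.707% in pool 3. The nuclear long non-coding RNA malat1 held 0.615%, 0.361% and 0.419%. Pool 1 was thus the highest for mitochondrial rRNA, malat1 and the mitochondrial messenger RNAs alike. The part of RNA quality or of poly-A selection in the differences between the pools was not tested. Genes labelled lincRNA held 1.93%, 1.60% and 1.69% of the counts, of which si:dkey-153m14.1 alone gave 1.13%, 1.07% and 1.06%.

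**Figure D1:**
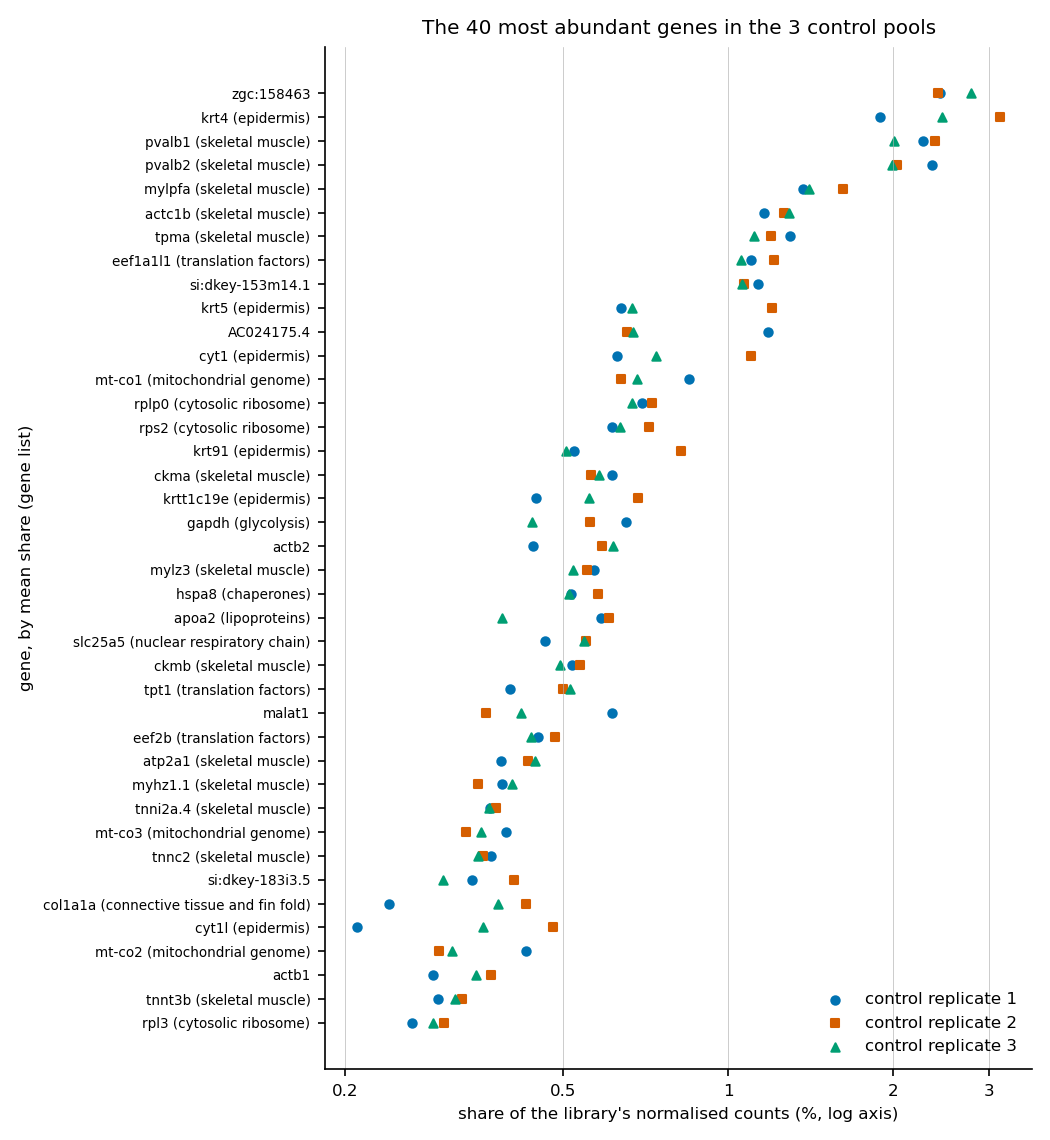
Share of each control library's normalised counts (%, log axis) for the 40 genes of largest mean share, in rank order, with 1 symbol per pool. Skeletal muscle genes lie close together in the 3 pools, whereas the keratin genes krt4, krt5, cyt1 and cyt1l are highest in pool 2.

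The lists of other organs and cell types gave smaller shares than muscle and epidermis. A list's share also depends on which genes were written in it. The lipoprotein list took 1.28% ± 0.13, with apoa2, a protein of high-density lipoprotein particles, giving 41.1% of it. The lens list took 0.846% ± 0.253, the liver list 0.626% ± 0.0907, the photoreceptor list 0.418% ± 0.132 and the neuron list 0.381% ± 0.19. The intestine list took 0.302% ± 0.0193, the exocrine pancreas list 0.299% ± 0.2, the erythrocyte list 0.170% ± 0.00805, the pigment cell list 0.0965% ± 0.0116 and the list of neutrophils, macrophages and lymphocytes 0.0586% ± 0.00557 (SD, n = 3 each). The spread relative to the mean was small for intestine and erythrocytes and large for exocrine pancreas and neurons. A single gene, rbp4, gave 36.3% of the liver list. All 41 lists held 50.4% of the control counts through 1346 matched genes.

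Some defining transcripts were close to 0. The yolk protein genes, vitellogenins, summed to 5.46e-05% ± 2.47e-05 of the counts, and the germ cell and maternal list to 0.000284% ± 3.75e-05 (SD, n = 3 each). The germ line RNA helicase gene ddx4 had 7, 15 and 25 normalised counts in pools 1, 2 and 3. The hatching enzyme genes, whose products digest the egg envelope, were uneven. For he1a the values were 1, 123 and 91, and for he1b they were 0, 48 and 30. Pool 1 was the lowest for both. In the exposed pools he1a had 18, 285 and 17 at 0.03 ppm, 12, 9 and 101 at 0.3 ppm, and 13, 0 and 18 at 1 ppm.

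**Figure D2:**
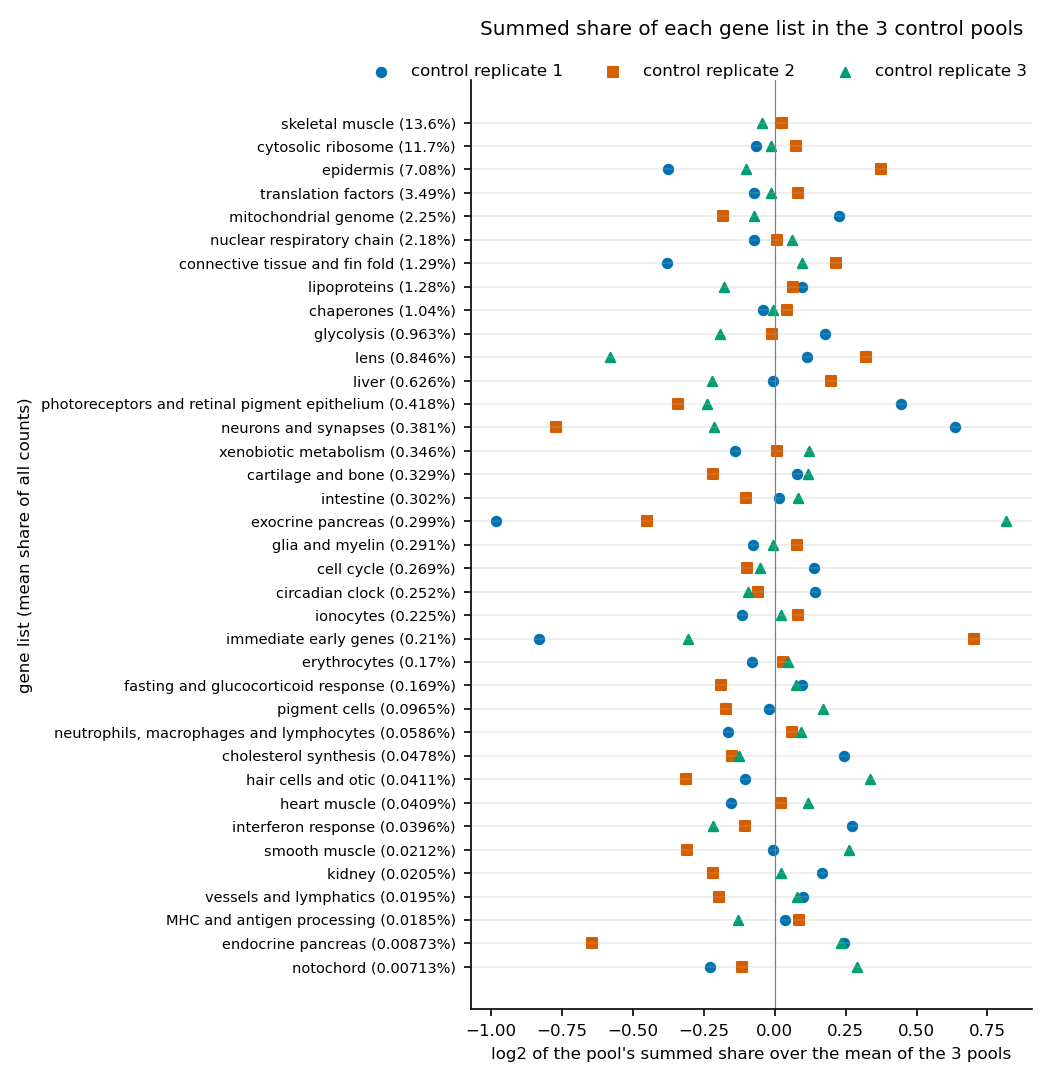
Summed share of each gene list with at least 5 members above a mean of 100 normalised counts, as log2 of the pool's share over the mean of the 3 control pools, with the mean share in parentheses. Muscle and ribosome lie near 0, exocrine pancreas, immediate early genes, neurons and lens spread the most among lists above 0.2%.

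The spread among the 3 pools was measured as the SD of log2 of the normalised count plus 1, over the 15198 genes with a control mean of at least 100. The genes below were chosen by these values, so they are described without a test. The median SD was 0.213. A value of at least 0.5 was found for 2178 genes, 14.3% of them, and of at least 1 for 209 genes, 1.38%. An SD of at least 1 was found for 101 genes without pool 1 and for 721 without pool 3, both from the remaining 2 pools. Over all 15198 genes, an SD of at least 1 was found for 117 at 0.03 ppm, 51 at 0.3 ppm and 53 at 1 ppm. These genes entered by their control mean alone, so a gene raised in a single control pool could enter through that pool. The counts therefore do not show that the control pools varied more than the exposed ones. Across genes, the Pearson correlation of the log2 values was 0.932 for pools 1 and 2, 0.952 for pools 1 and 3 and 0.977 for pools 2 and 3, so pool 1 lay farthest from the others. Among the 100 most variable genes were 12 immediate early genes, 8 exocrine pancreas genes and 5 neuronal genes.

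**Figure D3:**
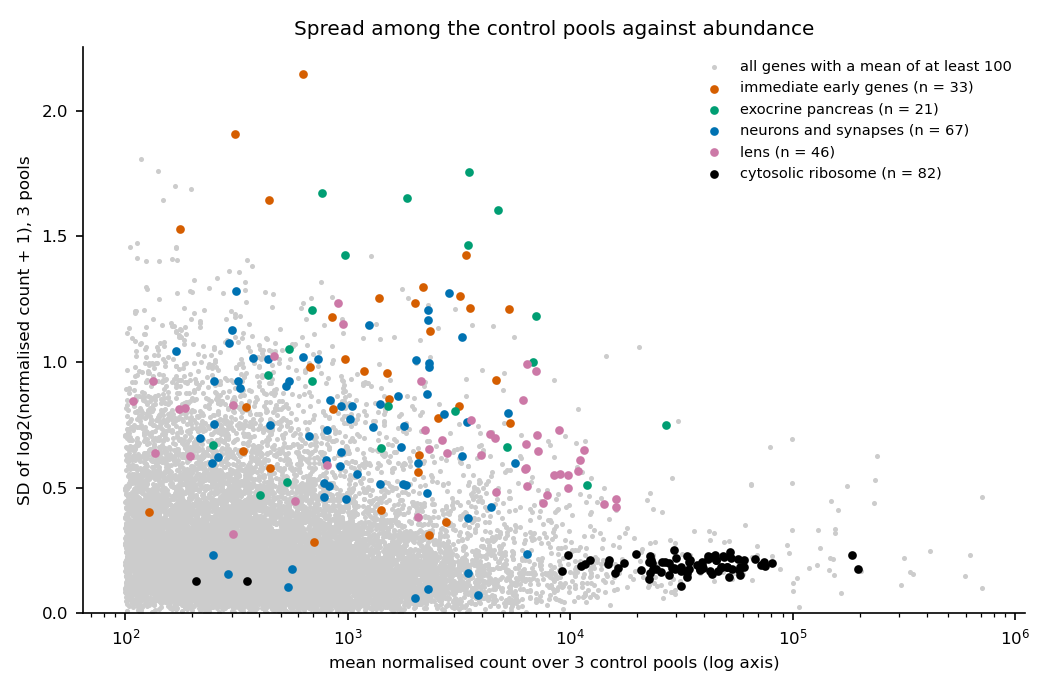
SD of log2(normalised count + 1) over the 3 control pools against the mean normalised count (log axis), for all genes with a mean of at least 100. Immediate early, exocrine pancreas, neuronal and lens genes lie above most genes of like abundance, and ribosomal protein genes lie in a band around 0.187.

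For each gene, the pool farthest from the median was taken as the odd one, and genes where it lay at least 1 (log2) from the mean of the other two were collected. Pool 1 was higher for 860 genes and lower for 198, pool 2 higher for 129 and lower for 93, and pool 3 higher for 50 and lower for 95. After rescaling to equal totals the count for pool 2 was 71 higher and 324 lower, and that for pool 3 was 80 higher. The other counts moved by less than 1.5 times.

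Neuronal and retinal genes marked pool 1. Of the 860 genes that were higher there, 42 were in the neuron list and 11 in the photoreceptor list. Syt2a, a synaptotagmin gene that encodes a calcium sensor of transmitter release, had 423 normalised counts in pool 1, 70 in pool 2 and 118 in pool 3. The potassium-chloride cotransporter gene slc12a5a had 540, 91 and 140. For both genes pool 1 was far above the others and pool 2 was the lowest. The glutamate transporter gene slc1a2b, a glial marker, had 8628, 2299 and 4198. The glia and myelin list summed to 0.276%, 0.307% and 0.290% of the counts, and its leading gene ptgdsb, a prostaglandin D synthase gene, gave 36.7% of that. By members, 14 of 24 glia and myelin genes were highest in pool 1 and 14 lowest in pool 2, and after rescaling 14 and 16. Over all 15198 genes with a mean of at least 100, 5858 were highest in pool 1 and 5163 lowest in pool 2. After rescaling these all-gene counts were 6674 and 8770. Of 67 neuron list genes with a mean of at least 100, 63 were highest in pool 1 and 62 lowest in pool 2, and after rescaling 62 and 66. Not every neuronal gene followed, since 4 of the 67 were highest in pool 3, and 5 after rescaling. The most abundant of the list, stmn1b, was highest in pool 1 but spread less, with 7618, 5769 and 5705. Genes with the protocadherin prefix, a family chosen after its values were seen, followed the neuron list, with 30 of 33 highest in pool 1. Pcdh2ac, for one, had 622, 101 and 316.

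The genes lower in pool 1 were a mixed group. The actinodin gene and3, which encodes a structural protein of the fin fold, had 1969 normalised counts in pool 1, 7790 in pool 2 and 6952 in pool 3. Fmodb, a fibromodulin gene, had 142, 664 and 567. Of the 198 genes, 6 were immediate early genes, 4 were in the connective tissue and fin fold list, and 3 each were in the epidermis and ionocyte lists.

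Immediate early genes marked pool 2. They are transcribed within minutes of a stimulus and mostly encode transcription factors. Fosl1a (ENSDARG00000015355) had the largest SD among the 15198 genes with a mean of at least 100, 2.15. It had 101 normalised counts in pool 1, 1627 in pool 2 and 158 in pool 3. Egr2a (ENSDARG00000044098) had 56, 751 and 125, fosab 949, 6853 and 2421, egr3 158, 1037 and 131, and nr4a1 946, 4603 and 993. Pool 2 was several times above both other pools for each of them. Of 33 such genes with a mean of at least 100, 31 were highest in pool 2, and 30 after rescaling, where all genes gave 5504 and 2171 of 15198. The list summed to 0.118%, 0.343% and 0.170% of the counts. Klf2a of the same list, a gene known to respond to blood flow, had 955, 4153 and 925. Outside the list, the prostaglandin synthase gene ptgs2b had 700, 3652 and 884.

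Digestive enzyme genes marked pool 3. Chymotrypsinogen ctrb1 (ENSDARG00000090428) had 1162 normalised counts in pool 1, 2569 in pool 2 and 10449 in pool 3. Carboxypeptidase gene cpa5 had 784, 1495 and 8270, the elastase gene ela2 988, 2055 and 7348, and the bile salt-activated lipase gene cel.1 284, 615 and 2025. The pools stood in the same order for all 4. The exocrine pancreas list summed to 0.151%, 0.219% and 0.526%, and 20 of its 21 genes above a mean of 100 were highest in pool 3. Over all 15198 genes with such a mean, 3742 were. After rescaling to equal totals these counts were 20 and 6353. Its most abundant member, the trypsin-like prss59.2, spread less, with 14239, 26257 and 40075. The insulin gene ins, of the endocrine pancreas list, had 82, 158 and 412. That list as a whole did not follow, with 0.0103%, 0.00558% and 0.0102% of the counts. Of its 7 genes above a mean of 100, 4 were highest in pool 3 and 3 in pool 1. Several of the digestive enzymes are members of near-identical families, and counts can be split among such copies.

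Lens and liver genes were low in the same pool. Of the 95 genes lower in pool 3, 26 were in the lens list and 8 in the liver list. The lens water channel gene mipb had 1488 normalised counts in pool 1, 951 in pool 2 and 284 in pool 3. The beta-crystallin gene crybb1 had 8413, 8218 and 2528, and the lens protease gene capn3a had 1042, 646 and 197. All 46 lens genes with a mean of at least 100 were lowest in pool 3, as deposited and after rescaling. In the liver list 41 of 43 were lowest there, and 39 after rescaling. Over all 15198 genes with such a mean, 3649 were lowest in pool 3, and 1706 after rescaling. Ttr, which encodes the thyroid hormone carrier transthyretin, had 1453, 1072 and 313, and the protease inhibitor gene a2ml had 2871, 2425 and 806. A gene listed under the symbol F7 (ENSDARG00000099192), which names a coagulation factor made in liver, was singled out after its values were seen. It had 140, 93 and 0, while another gene of that symbol (ENSDARG00000100782) had 152, 104 and 119.

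At the other end were genes that hardly differed. Among genes with a control mean of at least 1000, bc2 had 1732, 1736 and 1732 normalised counts, the ubiquitin ligase scaffold gene cul4b 1720, 1726 and 1725, the G protein gene gnai2a 1735, 1739 and 1729, and the phosphatase subunit gene ppp1cb 5003, 5026 and 4999. Such agreement is the extreme of 3418 genes and was chosen for it. In the 9 exposed pools ppp1cb lay between 4541 and 5413 and gnai2a between 1569 and 1903. The 23 matched genes of a panel in common use for normalising quantitative PCR had SDs from 0.0356 for tuba1b to 0.546 for b2m, with a median of 0.177. Actb2 had 118828, 181598 and 163545 and gapdh 175580, 172747 and 116470, whereas tbp, encoding the TATA-binding protein, had 276, 319 and 282.

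Whether the genes that set a control pool apart also differ by replicate number was asked in the 9 exposed libraries, which took no part in the choice. A linear model with dose and replicate number was fitted with limma to all 22093 genes that passed the filter on low values. The F test of replicate number called 1745 genes at a Benjamini-Hochberg adjusted p under 0.05, 7.9% of those tested. Of the 860 genes higher in control pool 1 it called 294, 34.2%. It called 26 of the 129 genes higher in control pool 2 and 40 of the 93 lower there. For control pool 3 it called 17 of the 50 higher and 20 of the 95 lower. Of the 198 genes lower in control pool 1 it called 57. All these sets hold only genes with a control mean of at least 100, while the 7.9% also covers less abundant genes. A share over equally abundant genes was not computed, so the sets cannot be set directly against the 7.9%. The calls of the F test rest on few libraries and on the variance model. The F test called 0 genes in a limma fit with no mean-variance trend, and 0 without the 1 ppm group. Without replicate 2 at 1 ppm 1 gene of all was called, without replicate 3 at 1 ppm 31, without replicate 2 at 0.03 ppm 284, without replicate 3 at 0.3 ppm 632 and without replicate 2 at 0.3 ppm 1004.

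The pool-by-pool counts differed by number. Contrasts set each exposed replicate number against the other two. The contrasts of a gene are linked, since a gene low in 1 number lies on average on the higher side in the others. Replicate 1 gave 0 calls in either direction among all genes with limma, and thus 0 of the 860 genes higher in control pool 1 and 0 of the 198 lower there. The F test held 5978 genes at an unadjusted p under 0.05. Without the 0.03 ppm group, 66 of the 860 were called higher in exposed replicate 1, and without replicate 1 at 0.03 ppm 3 were. Replicate 2 gave 1344 genes higher, 6.08% of those tested, and 1836 lower, 8.31%. Of the genes higher in control pool 2, 25 of 129 were called higher in exposed replicate 2, and of the genes lower in control pool 2, 51 of 93 were called lower. Both counts were 0 without the 1 ppm group. Without replicate 2 at 1 ppm they were 1 and 2, without replicate 3 at 1 ppm 12 and 35, and without replicate 2 at 0.03 ppm 13 and 29. Rescaling to equal totals gave 11 and 62. Replicate 3 gave 55 genes higher, 0.249%, and 48 lower, 0.217%, among them 1 of the 50 and 5 of the 95 genes of the matching control sets. Without each exposed library in turn these 2 counts ranged from 0 to 17 each.

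A count made after these results were seen concerned control pool 1. Of its 860 higher genes, 444 were called lower in exposed replicate 2, and 816 lay on the higher side in exposed replicate 1 without a call. In exposed replicate 3, 673 also lay on the higher side and 14 were called higher. The medians were 0.260 (log2) in replicate 1, -0.546 in replicate 2 and 0.265 in replicate 3. Because the contrasts are linked, the higher sides in replicates 1 and 3 in part restate the low values in replicate 2. They are no separate result. Of all genes tested, 50.4% lay on the higher side in replicate 1 and 48.6% in replicate 3. The 444 became 1 without replicate 2 at 1 ppm, 174 without replicate 2 at 0.03 ppm and 229 without replicate 3 at 1 ppm. The neuronal gene syt2a was among them. It had 187, 78 and 165 normalised counts in replicates 1, 2 and 3 at 0.03 ppm, 172, 106 and 104 at 0.3 ppm, and 234, 85 and 185 at 1 ppm. Replicate 2 was the lowest at 0.03 and 1 ppm and close to replicate 3 at 0.3 ppm, with a difference of -0.93 ± 0.19 on the log2 scale from the other two (SE, limma adjusted p = 0.0139). All 9 exposed pools were below the 423 of control pool 1, but the gene was chosen by its control values.

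Lists were counted in the same way after values were seen. Of 74 neuron list genes tested, 50 were called lower in exposed replicate 2 and 1 higher. Among 49 epidermis genes, 33 were called higher and 1 lower. The share of the epidermis list was 8.44%, 12.3% and 7.74% in replicates 1, 2 and 3 at 0.03 ppm, 7.95%, 11.3% and 7.46% at 0.3 ppm, and 6.17%, 12.1% and 5.98% at 1 ppm. Replicate 2 was the highest in each group, as in the control. Krt5 was higher in exposed replicate 2 by 1.1 ± 0.26 on the log2 scale (SE, limma adjusted p = 0.0233). Of 21 ionocyte genes 16 were called higher, and of 30 cartilage and bone genes 21 were called lower. Of all genes tested, 6.08% were called higher and 8.31% lower in exposed replicate 2. The cartilage and bone genes did not clearly share this order in the control. Of 27 with a mean of at least 100, 10 were lowest in control pool 2 and 16 in pool 1, and after rescaling 15 and 12. Without replicate 2 at 1 ppm, 0 genes of these 4 lists were called in those directions. Without replicate 2 at 0.03 ppm the counts were 26 neuronal, 8 epidermal, 8 ionocyte and 11 cartilage and bone genes, and without replicate 3 at 1 ppm they were 33, 12, 11 and 15. The ribosome list had 0 of 82 called in any contrast, although 81 lay on the higher side in replicate 2, with a median of 0.260 (log2). Replicate 2 also had the largest total of normalised counts in each exposed group. These totals were 29417711 at 0.03 ppm, 29208588 at 0.3 ppm and 31907243 at 1 ppm. All list counts in the exposed pools are from the values as deposited, without rescaling to equal totals.

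Immediate early genes did not keep the order of the control pools. Fosab had 949, 6853 and 2421 in the control, then 7561, 225 and 7594 at 0.03 ppm, 2617, 2800 and 2612 at 0.3 ppm, and 2513, 5547 and 1926 at 1 ppm. Replicate 2 was thus the highest in the control and at 1 ppm, barely the highest at 0.3 ppm and the lowest at 0.03 ppm. Of 36 immediate early genes tested, 4 lay on the higher side in exposed replicate 2, with a median difference of -0.60 (log2), and 0 were called higher and 3 lower. Of all genes tested, 51.3% lay on the higher side there, 6.08% were called higher and 8.31% lower. The 3 calls are thus near the share of all genes. The F test called 2 of the 36, 5.56%, against 7.9% of all genes. Egr3 was one of the genes called, lower in exposed replicate 2 by -1.94 ± 0.33 (log2 ± SE, limma adjusted p = 0.00782), the opposite of its rank in the control.

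The pancreatic genes were not highest in the same number in every group. Ctrb1 had 1162, 2569 and 10449 in the control, 966, 11894 and 2623 at 0.03 ppm, 1355, 1843 and 4761 at 0.3 ppm, and 1732, 4137 and 5077 at 1 ppm. Replicate 1 was the lowest in all 4 groups. In the exposed pools 24 of 25 pancreas genes tested lay on the lower side in replicate 1, with a median of -1.2 (log2), and 0 were called in that contrast. In replicate 2, 24 of the 25 lay on the higher side, with a median of 0.76, and 7 were called higher, while the F test called 5. In replicate 3, the number of the high control pool, 22 of the 25 lay on the higher side, with a median of 0.42 and 0 called. The contrasts are linked, so these sides are not separate results. Of all genes tested, 51.3% lay on the higher side in replicate 2 and 48.6% in replicate 3. The all-gene shares called were 6.08% for higher in replicate 2 and 7.9% for the F test. For the lens list, 55 of 56 genes lay on the lower side in exposed replicate 3, with a median of -0.86, and 2 were called. The liver list, which was also low in control pool 3, had 39 of 46 genes on the higher side in exposed replicate 3, with a median of 0.41, and 0 called higher and 1 lower. The members of a list share the same pools, so they are not separate observations.

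**Figure D4:**
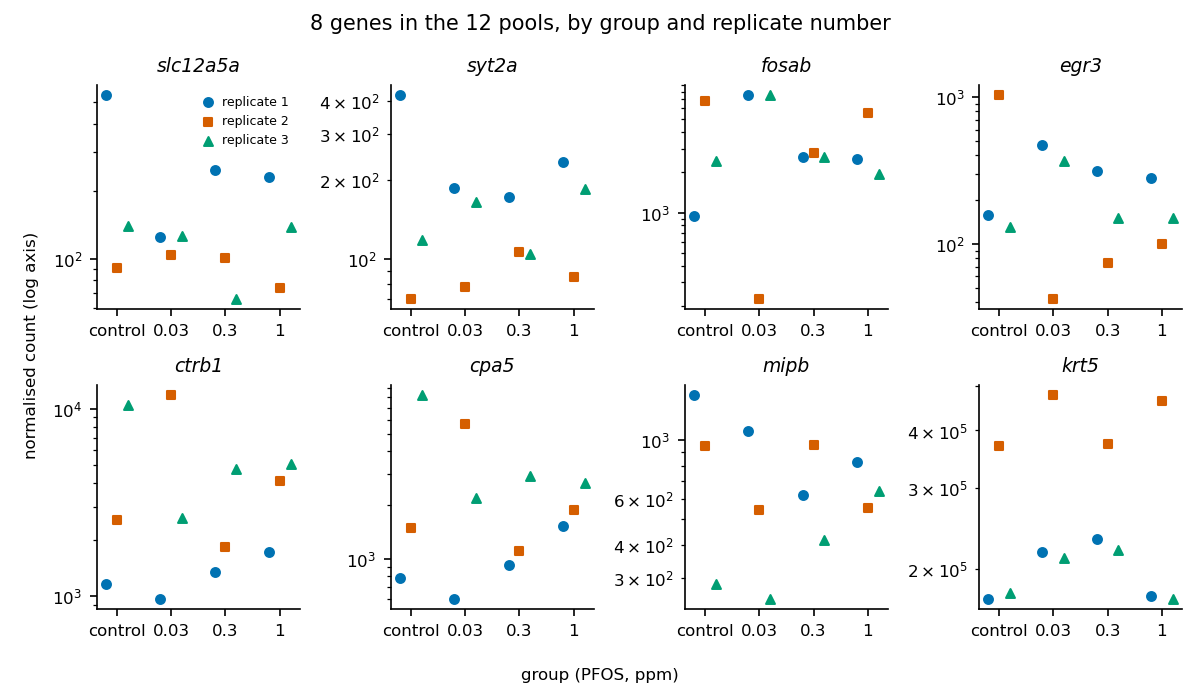
Normalised counts (log axis, a separate scale for each gene) of 8 genes in the 12 pools, by group from control to 1 ppm PFOS, with 1 symbol per replicate number. Replicate 2 is the highest for krt5 in all 4 groups, while fosab and ctrb1 change their order between groups.

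**Figure D5:**
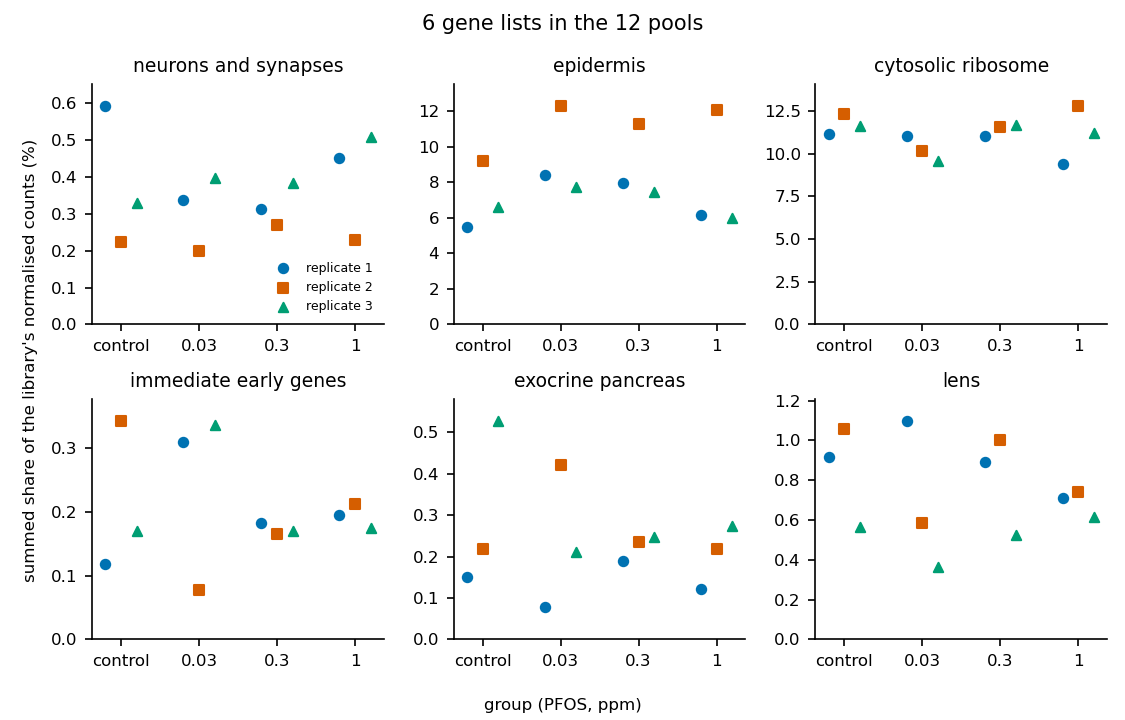
Summed share of the library's normalised counts (%) for 6 gene lists in the 12 pools, by group from control to 1 ppm PFOS. The neuron share of control pool 1, 0.592%, and the exocrine pancreas share of control pool 3, 0.526%, are the highest of the 12 pools.

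The genes most variable in the control had smaller SDs in the exposed groups, which took no part in the choice. A drop follows from choosing genes by their largest SD in the control, so it is no result about exposure. The 100 most variable had a median SD of 1.26 in the control, which chose them, 0.637 at 0.03 ppm, 0.455 at 0.3 ppm and 0.680 at 1 ppm. All genes had medians of 0.213, 0.227, 0.199 and 0.221 in the same order. Of the 100 genes, 53, 36 and 60 were in the 5% most variable genes at 0.03, 0.3 and 1 ppm.

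Few genes passed the test of the exposed pools against the control. Over all 12 libraries, the mean of the 3 exposed groups minus the control called 42 of 22320 genes, 0.188%, with 1 higher, 0.00448%, and 41 lower, 0.184%, in exposed pools (limma, adjusted p under 0.05). At an unadjusted p under 0.05 there were 970. Among the 100 most abundant genes, 0 were called in either direction, also in every fit that left out a library. With 0.188% of all genes called, this does not set the abundant genes apart, and it does not show that they are unchanged. On simulated data the same fit recovered 44% of the genes changed 1.5-fold, with 8 false calls among 22320 genes. The simulated noise was independent between pools, and the changed genes were drawn from all with a mean of at least 100. The 44% is therefore not the recovery for the 100 most abundant genes. Krt4 had 953227, 1320338 and 747501 normalised counts at 0.03 ppm, 883563, 1197711 and 843379 at 0.3 ppm, and 567820, 1415253 and 636943 at 1 ppm, against 511403, 966273 and 651154 in the control. The pools of each exposed group overlap those of the control, and the difference of 0.41 (log2) did not pass the test (limma adjusted p = 1.00). Ckma had the values 116399, 122628 and 79365 at 0.03 ppm, 121108, 131007 and 108802 at 0.3 ppm, and 95862, 128611 and 116653 at 1 ppm, against 165085, 172862 and 154389 in the control. Every exposed pool was below every control pool for this gene, by -0.55 on the log2 scale, without passing the test (limma adjusted p = 0.844).

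Of the lists, the fasting and glucocorticoid list held 5 of 29 genes called lower in exposed pools, the leukocyte list 3 of 46, and the epidermis and interferon lists 1 each. Mpeg1.2, in the leukocyte list, encodes a perforin-like protein of macrophages. Its values were 352, 567 and 514 at 0.03 ppm, 255, 418 and 515 at 0.3 ppm, and 318, 462 and 308 at 1 ppm, against 1066, 1005 and 1768 in control pools 1, 2 and 3. All exposed pools lay below all control pools, by -1.63 ± 0.24 (log2 ± SE, limma adjusted p = 0.0122). The kinase gene pdk2b of the fasting list, which restrains pyruvate oxidation, was not among the 5 called (limma adjusted p = 0.0530). It had 2354, 3604 and 2035 at 0.03 ppm, 2398, 2807 and 2077 at 0.3 ppm, and 2793, 2178 and 2068 at 1 ppm, against 4432, 4711 and 4733 in the control. The 3 control values of pdk2b lay close together and above all 9 exposed values. Of the 860 genes higher in control pool 1, 2 were called lower in exposed pools, where 0.184% of all genes were. Of the 50 genes higher in control pool 3, 3 were, and of the 100 most variable genes 1 was. These sets were chosen by control values that also enter this test, so the counts are no support for a difference.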

How the data were processed

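RNA of 12 pools was sequenced as stranded poly-A libraries, per the labels' protocols. Per the submitters' processing notes, the tools included the aligner STAR (version 2.5.1b) and the quantifier RSEM (version 1.2.28), along with CASAVA and DESeq2, on the build GRCz10. Their settings are not given in the sources used here. The deposited values are called normalized counts, per the file headers; the authors rounded them to whole numbers, so they are recorded as a score and not as raw counts. Raw depth is therefore unknown here, and no counting interval is given. Coordinates and sequences were not used.

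Shares, SDs and sets were computed with Python 3.11.15 and pandas. Linear models on log2(value + 1) used limma (version 3.58.1, under R 4.3.3) with a mean-variance trend, for genes with at least 10 in at least 3 of the fitted libraries. Fold changes on this scale understate the change of low genes. All tests are two-sided. Group members, lists and naming rule were chosen with earlier results of these data known. Named are the 40 most abundant genes, up to 4 leading members per list, the 30 most and 10 least variable genes, the reference panel, and up to 10 genes per pool and direction. Of 1422 symbols in the lists 1329 matched, 27 genes through a current symbol. The linear models were tested on simulated data. Alternatives covered scaling, pseudocount, filter, trend, left-out libraries and dose groups, and a replicate block.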

Additional observations from a re-analysis of the deposited data

How the results depend on the processing

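The share of the 100 most abundant genes, 42.4%, lay between 41.0% and 43.1% without each control pool in turn, and 39 to 40 of the first 40 genes stayed among them. The shares of muscle, ribosome, epidermis and all lists moved to 11.4%, 11.0%, 4.59% and 39.5% when the most abundant member of each list was left out, and lay between 13.5% and 13.8%, 11.4% and 12.0%, 6.04% and 7.90%, and 48.8% and 51.3% without each control pool. The count of genes with an SD of at least 1, 209, became 623 with a control mean of at least 10 and 37 with at least 1000, and lay between 101 and 721 without each control pool. Of the 1745 genes called by replicate number, the count was 1038 with no filter, 0 with no trend, 2758 without the 0.03 ppm group, 392 without the 0.3 ppm group and 0 without the 1 ppm group, and lay between 1 and 2281 without each exposed library, an alternative chosen after seeing the data. The 444 became 260 with no trend and 0 without the 1 ppm group, and lay between 1 and 474 without each exposed library. The cause of these changes was not tested. The count of exposed against control lay between 28 and 60 without each library.

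With the replicate number as a block, exposed against control called 78 genes in place of 42, with 0 of the 100 most abundant. The replicate numbers pair the samples only in part. Deviations of same-numbered control and exposed pools correlated at 0.0776 to 0.478, different numbers at up to 0.226, and 8 of 9 control pools by dose correlated best with their own number. Shares per coding length were not run, because no lengths were used. Rounded normalised values hide the counting error of low genes.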
